A study of Danio rerio with 6 samples.

Results

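The genes described here had higher transcript levels in every sample of atoh1b morpholino-injected zebrafish embryos than in any control sample. Levels are CPM, the count of a gene divided by the total count of its sample and multiplied by 1000000. A gene was taken when it lay on a chromosome of the nuclear genome, its lowest atoh1b-MO value exceeded its highest control value, its mean atoh1b-MO level was at least 5 CPM and the ratio of the mean atoh1b-MO level to the mean control level was at least 1.5. Genes of 1 stretch of chromosome 12 that holds a cluster of overlapping genes were left out, as were genes at least 10 times higher in control 3 than in both other controls. Of 244 genes that met the limits, 5 fell to these exclusions. The remaining 239 members came from 32266 genes in the table and from 11100 nuclear genes with a mean atoh1b-MO level of at least 5 CPM.

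RNAseq had been performed on pax8:DsRed-positive cells, which the labels assign to the OEPD (otic-epibranchial progenitor domain, the source of the inner ear and neighbouring sensory ganglia) and the nephric anlagen. The atoh1b-MO samples 2, 4 and 5 came from embryos injected with a morpholino, an antisense oligomer that blocks a transcript, against atoh1b, which encodes a transcription factor of early hair cell formation. Controls 1, 2 and 3 are labelled wild type, and whether they had received a control injection is not given in the sources used here. All embryos carried 1 copy of the pax8:DsRed transgene, were taken at late OEPD stages, and were deyolked and dissociated before DsRed-positive cells were collected by flow cytometry. In the labels of these injected samples the genotype is given as a dlx3b/4b knockdown, but their titles and the study name atoh1b, and the titles were followed. The level of atoh1b could not be used to check the labels, since it lies on an unplaced scaffold for which the table holds no counts.

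All 6 samples and the whole contrast between the groups had been used to choose the members, so their values are a description and no test is attached to them. Samples held between 24120228 and 37169850 counts in total, and a level of 3 counts corresponded to 0.0807 to 0.124 CPM. These limits cover counting error only. Control 3 stood apart from the other controls. PAX8, the gene whose reporter had been sorted for, had 111, 205 and 178 CPM in atoh1b-MO samples 2, 4 and 5, against 285, 228 and 15.8 CPM in controls 1, 2 and 3. The summed level of the otic-epibranchial marker list was 1821, 1922 and 1809 CPM in atoh1b-MO samples, against 2052, 2601 and 1518 CPM in controls, and that of the pronephros list was 1073, 1463 and 1401 CPM, against 1470, 1422 and 336 CPM. Markers of both labelled tissues were thus present in every sample, but PAX8 and both lists were lowest in control 3. From here on, values of a gene are given in the order atoh1b-MO 2, 4 and 5, then control 1, 2 and 3. Fewer cells of a type and less RNA per cell cannot be told apart in such samples.

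Several of the members belong to the machinery of the endoplasmic reticulum (ER), where secreted and membrane proteins are folded. When unfolded proteins accumulate there, sensors in the ER membrane, among them Atf6, set off the unfolded protein response and with it transcription of ER chaperones. Other members encode apolipoproteins and plasma proteins, which in the early fish embryo are products of the yolk syncytial layer, the multinucleate layer that passes yolk nutrients to the embryo, and later of the liver. Globins, cytosolic heat shock proteins and solute carriers also occur.

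The ratio of mean levels ranged over the members between 1.503 and 16.4, with a median of 1.78 and quartiles of 1.62 and 2.25. It was at least 2 for 89 members, at least 3 for 34, at least 5 for 18 and at least 10 for 9. Most members were weakly expressed, with a median of 11.97 CPM in atoh1b-MO samples. The mean atoh1b-MO level was under 10 CPM for 102 members and at least 100 CPM for 8. The summed level of all members was 5823, 6458 and 6099 CPM in atoh1b-MO samples, against 2974, 3319 and 3043 CPM in controls. Per kilobase of transcript, the highest mean atoh1b-MO levels were those of HSPA5 with 191, calr3b with 137, hbae3 with 133 and HSP90AA1 with 86.4 CPM per kilobase.

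**Figure D1:**
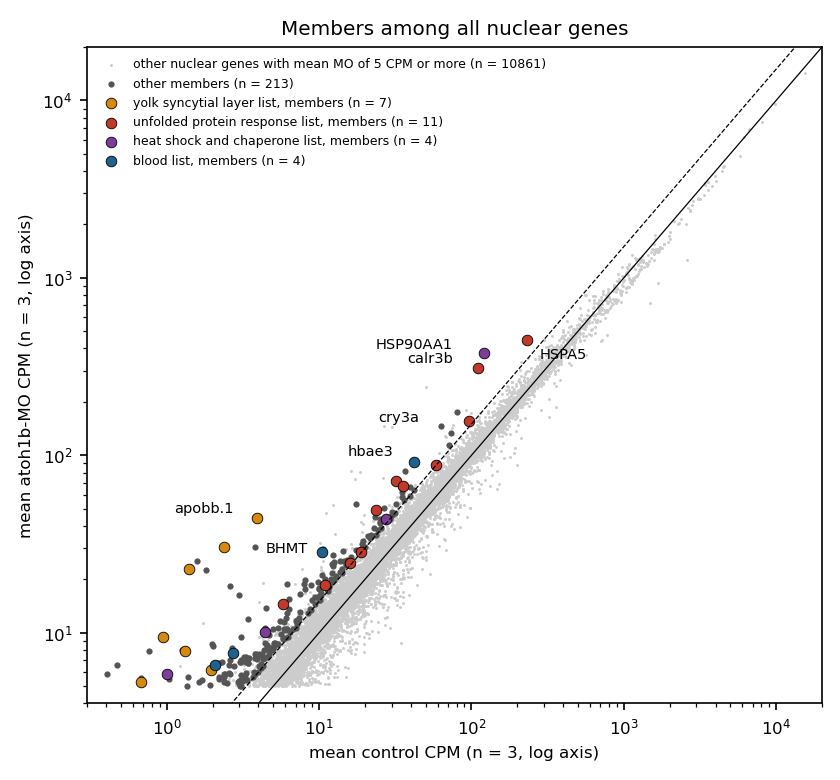
Mean CPM in atoh1b-MO samples (vertical, log axis) against mean CPM in controls (horizontal, log axis), 3 samples each, for nuclear genes with a mean atoh1b-MO level of at least 5 CPM. Large coloured points are members in 4 gene lists, dark points the other members and light points the remaining genes. The solid line marks equal levels and the dashed line a ratio of 1.5. The yolk syncytial layer members lie above the dashed line with ratios between 3.18 and 16.4. Among the members, the chaperones HSPA5, HSP90AA1 and calr3b have the highest levels.

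Non-overlap of the groups was frequent among all genes on this scale. Of the 11100 nuclear genes with a mean atoh1b-MO level of at least 5 CPM, 1457 had all atoh1b-MO values above all control values, a background of 13.1%, and the whole rule took 2.15% of them. In the other direction, 412 of 11004 nuclear genes with a mean control level of at least 5 CPM had all atoh1b-MO values below all control values, or 3.74%, and the mirrored limits gave 37 lower genes. The excess of higher genes depended on the scaling. With TMM scaling the rule gave 177 higher and 71 lower genes, and 850 of 11025 genes lay above, or 7.71%, against 845 below. The 177 higher genes were all among the 239 members. On the unscaled CPM, the median log2 ratio over the 11100 genes was 0.06, and it was -0.01 with TMM scaling.

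Some members passed the limits narrowly. The ratio was 1.503 for ANKH and 1.505 for CSAD just inside the limit, and 1.498 for ABHD10, 1.498 for prkd2 and 1.497 for brat1 just outside it. By mean level, TLCD4 with 5.01 CPM, cntrob with 5.03 CPM and hbae4 with 5.03 CPM were just inside, and rmdn3 with 4.96 CPM, ZNF653 with 4.93 CPM and rubcn with 4.90 CPM just outside. The lowest atoh1b-MO value divided by the highest control value was 1.003 for hbae3, 1.005 for EFR3B and 1.005 for ENSDARG00000090394, and 0.9999 for SLC4A4, 0.998 for RIPK2 and 0.995 for SNX19, which were not taken. Over the members this quotient had a median of 1.27. It was under 1.1 for 45 members, at least 1.5 for 41 and at least 2 for 15.

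ER chaperones and the proteins that attend them were the most abundant coherent set. Of 26 genes in the unfolded protein response list, 23 had a mean atoh1b-MO level of at least 5 CPM, 19 of these had groups that did not overlap, all upward, and 11 were members. The share of 82.6% stands beside the background of 13.1%, and nothing was read from it, since the list was chosen with earlier results of these data known. The median ratio over the 23 genes was 1.46. The summed level of the list was 2971, 3214 and 2907 CPM in atoh1b-MO samples, against 1764, 1972 and 2161 CPM in controls. The count of 19 was the same with TMM scaling and with DESeq2's size factors, where the backgrounds were 7.71% and 7.58%.

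HSPA5, which encodes the Hsp70 chaperone of the ER lumen (BiP), had 417, 492 and 433 CPM in atoh1b-MO samples, against 167, 219 and 309 CPM in controls. Its mean was 447 ± 39.3 CPM in atoh1b-MO samples and 232 ± 71.8 CPM in controls (SD, n = 3 each), a ratio of 1.93. Control 3 was the highest control and lay nearest to the atoh1b-MO samples. HSP90B1, the Hsp90 chaperone of the ER, had 75.2, 74.6 and 64.6 CPM, against 24.6, 30.2 and 41.7 CPM in controls, a ratio of 2.22. HYOU1, a large Hsp70-related ER chaperone, had 145, 164 and 156 CPM, against 90.8, 99.4 and 101 CPM, a ratio of 1.6003 with controls close to each other. PDIA4, a disulfide isomerase, had 51.7, 52.3 and 44.4 CPM, against 22.3, 22.01 and 27.0 CPM, a ratio of 2.08.

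The calreticulins bind calcium and newly made glycoproteins. calr3b had 262, 408 and 268 CPM in atoh1b-MO samples, against 66.2, 85.7 and 181 CPM in controls, the highest ratio in the list with 2.81. CALR had 70.6, 67.0 and 63.7 CPM, against 27.4, 34.7 and 43.9 CPM, a ratio of 1.90. In both genes the order of the controls was the same, with control 1 lowest and control 3 highest.

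The DnaJ-type cochaperones dnajc3a and dnajc3b bring substrates to BiP in the ER. dnajc3a had 13.5, 16.2 and 14.0 CPM in atoh1b-MO samples, against 2.65, 4.01 and 10.7 CPM in controls. dnajc3b had 28.6, 30.0 and 27.0 CPM, against 14.9, 17.5 and 23.8 CPM. CRELD2, an ER-resident protein induced by ER stress, had 19.1, 19.7 and 16.9 CPM, against 8.64, 10.9 and 13.0 CPM. The ratios of these 3 genes were 2.52, 1.52 and 1.71. Of the regulatory members, atf6, the membrane-bound sensor and transcription factor, had 97.4, 84.9 and 83.9 CPM, against 59.4, 61.7 and 53.7 CPM, and HERPUD1, a component of ER-associated degradation, had 21.1, 26.9 and 26.1 CPM, against 13.4, 17.5 and 17.0 CPM. Here control 3 did not lie nearer to the atoh1b-MO samples than control 2.

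A further 8 genes of the list did not overlap but stayed under the ratio of 1.5: PDIA6, calr3a, EDEM1, SEL1L, MANF, DNAJB11, CANX and ern1. The 4 genes with overlapping groups were XBP1, SDF2L1, PDIA3 and selenos. XBP1, the transcription factor activated by splicing in this response, had 179, 193 and 147 CPM in atoh1b-MO samples, against 83.4, 120 and 180 CPM in controls, so that control 3 alone overlapped. Without control 3, all 23 genes of the list lay above the controls, beside a background of 21.04% without that sample. The level of DDIT3, which encodes the stress-induced factor Chop, was 5.26, 4.89 and 4.24 CPM, against 3.73, 5.11 and 3.19 CPM, and the groups overlapped. In 9 of the 11 members control 3 was the highest control, and in 8 of 11 atoh1b-MO 4 was the highest atoh1b-MO sample.

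**Figure D2:**
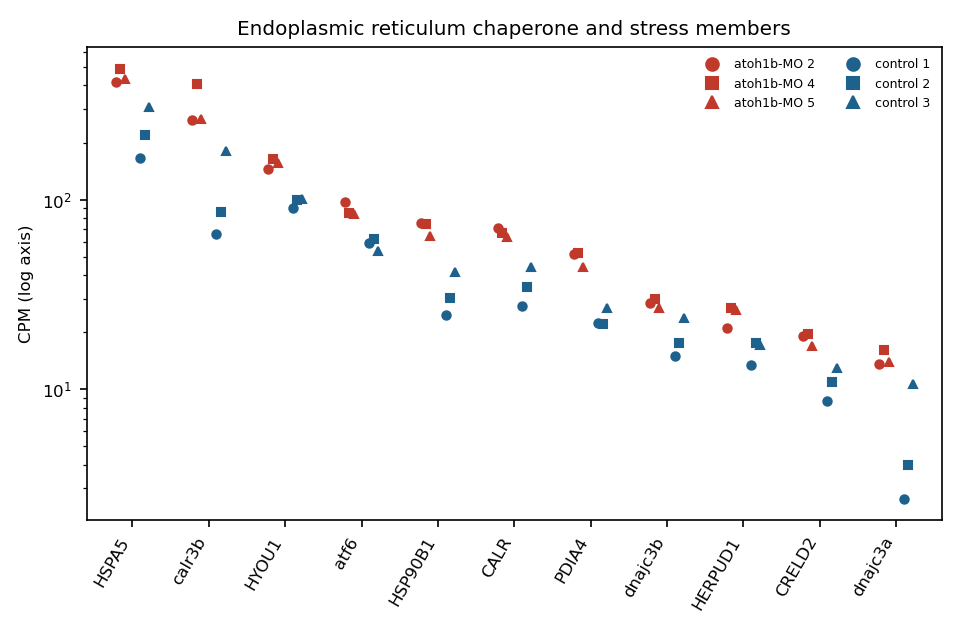
CPM (log axis) of the 11 members in the unfolded protein response list, ordered by mean atoh1b-MO level. Each symbol is 1 sample, with atoh1b-MO samples in red at the left and controls in blue at the right. HSPA5 lies between 417 and 492 CPM in atoh1b-MO samples and between 167 and 309 CPM in controls, and control 3 (blue triangle) is the highest control for 9 of the genes.

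More members act in the ER or in transport from it, although they were in no list and were picked out after their values had been seen. TRAM1, which helps chains pass through the protein-conducting channel, had 151, 226 and 149 CPM in atoh1b-MO samples, against 61.6, 73.9 and 107 CPM in controls, a ratio of 2.17. Its paralog TRAM2 had a ratio of 1.51. rrbp1b, a ribosome-binding protein of the ER membrane, had 128, 151 and 121 CPM, against 49.96, 59.3 and 112 CPM, with control 3 close below the lowest atoh1b-MO sample. mia2, which acts at ER exit sites, had 19.2, 18.3 and 17.96 CPM, against 8.64, 8.61 and 9.39 CPM. The ratio was 1.85 for SIL1, an exchange factor of BiP, 1.51 for FICD, which modifies BiP, 2.07 for DERL3 and 1.66 for os9, which act in ER-associated degradation, and 1.68 for ERO1B, an oxidase that drives disulfide formation. UFSP2 and CDK5RAP3 of the UFM1 conjugation pathway, which modifies ribosomes at the ER, had ratios of 1.63 and 1.58.

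Apolipoprotein and plasma protein genes had the highest ratios. The yolk syncytial layer list held 31 genes, of which 12 had a mean atoh1b-MO level of at least 5 CPM. Of these 12, 7 did not overlap, or 58.3% beside the background of 13.1%, and all 7 were members, with ratios between 3.18 and 16.4 and a median of 10.03. The 5 others overlapped. With TMM scaling 6 of 12 genes lay above, beside a background of 7.71% on that scale, and 1 lay below. Nothing was read from these shares, since the list was chosen with earlier results of these data known. Moreover, the 7 members reached 5 CPM on average only in the atoh1b-MO group, on which the level limit was set. The members together summed to 153, 129 and 97.3 CPM in atoh1b-MO samples, against 9.89, 2.37 and 25.4 CPM in controls. The whole list gave another picture, with 1925, 1804 and 1794 CPM in atoh1b-MO samples, against 3196, 2769 and 1627 CPM in controls. The largest part of this sum came from apoeb, with 1000, 874 and 919 CPM, against 2177, 1941 and 945 CPM. This apolipoprotein gene is also expressed outside the yolk syncytial layer. The remaining genes of the list were not summed apart from apoeb, so no rise of the list outside its members was read here. The yolk syncytial layer regulators mxtx1 and mxtx2 were below 1 CPM in every sample. The vitellogenin gene vtg1, which encodes a yolk precursor, was at 0 in every sample. Nothing about yolk cell RNA was read from these low levels. As stated, all embryos had been deyolked, and the part of carried-over yolk cell RNA in these values was not tested.

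The gene afp4 (ENSDARG00000095863, chromosome 16, 45947764 to 45950606) had the highest ratio of all members. Its level was 18.8, 29.8 and 20.1 CPM in atoh1b-MO samples, against 1.08, 0.0538 and 3.05 CPM in controls, a ratio of 16.4. A neighbour with the same symbol (ENSDARG00000041490, chromosome 16, 45937437 to 45943334) had 10.2, 9.45 and 8.83 CPM, against 1.25, 0.0807 and 1.51 CPM. Both lie on the same strand 4430 bases apart, and counts of similar copies are uncertain. apoa1b, which encodes apolipoprotein A-I, had 30.1, 34.3 and 26.5 CPM, against 2.51, 0.296 and 4.28 CPM, a ratio of 12.8. Its paralog apoa1a had 8.84, 7.55 and 7.22 CPM, against 1.22, 0 and 2.71 CPM, where the 0 of control 2 allows a level of up to 0.0807 CPM. apoa2, another apolipoprotein gene, had 5.22, 5.72 and 4.996 CPM, against 0.488, 0.404 and 1.13 CPM. For these 5 genes control 2 was the lowest control and control 3 the highest.

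apobb.1, an apolipoprotein B gene (chromosome 20, 31366899 to 31382011), was highest in atoh1b-MO 2 by a wide margin, with 72.9, 35.2 and 25.6 CPM in atoh1b-MO samples, against 2.47, 0.619 and 8.64 CPM in controls. APOB (chromosome 17, 30687105 to 30711003), in no list, had 13.1, 3.03 and 3.70 CPM, against 0.105, 0.457 and 0.857 CPM. Both large apolipoprotein B genes were thus highest in the same sample. FABP2, an intestinal-type fatty acid binding protein, had 7.37, 7.05 and 4.11 CPM, against 0.871, 0.915 and 4.04 CPM. Control 3 almost reached atoh1b-MO 5 there, and the ratio was 3.18 with control 3 and 6.91 without it.

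The genes outside the list that are named next likewise had control 3 as their highest control, except HNF4A. tfa, which encodes the iron carrier transferrin, had 25.4, 28.9 and 21.4 CPM in atoh1b-MO samples, against 1.64, 0.296 and 2.81 CPM in controls, a ratio of 15.9. fetub, a secreted protease inhibitor of the fetuin family, had 22.7, 23.8 and 20.9 CPM, against 1.85, 0.161 and 3.43 CPM. BHMT, which remethylates homocysteine with betaine, had 30.1, 32.2 and 29.5 CPM, against 2.86, 1.02 and 7.51 CPM. The spread among atoh1b-MO samples was small for these genes, and BHMT averaged 30.6 ± 1.40 CPM in atoh1b-MO samples and 3.80 ± 3.34 CPM in controls (SD, n = 3 each). fbp1b, a fructose bisphosphatase of gluconeogenesis, had 5.06, 6.05 and 5.58 CPM, against 0.662, 0.215 and 1.17 CPM. PLA2G12B, a catalytically inactive phospholipase A2 relative needed for lipoprotein export in the mouse liver, had 4.70, 7.96 and 4.86 CPM, against 0.244, 0.323 and 0.651 CPM. HNF4A, a nuclear receptor of liver, gut and kidney tubule that was in the pronephros list, had another order of samples, with 24.8, 30.0 and 27.2 CPM, against 18.9, 17.7 and 0.617 CPM. Its ratio was 2.204 with control 3 and 1.49 without it.

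**Figure D3:**
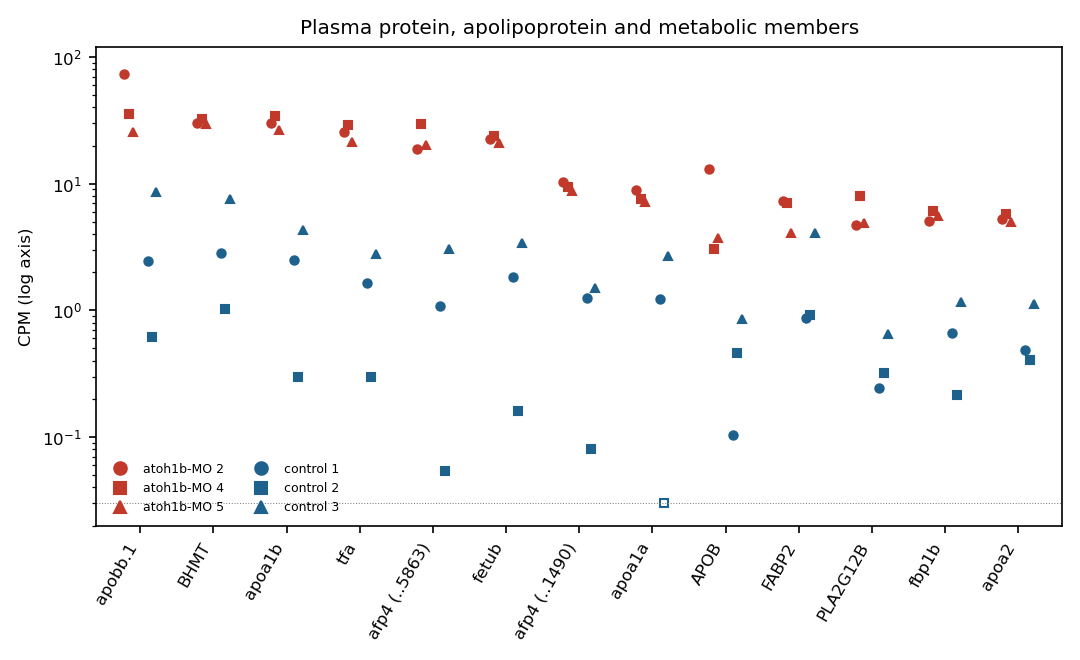
CPM (log axis) of 13 members that encode apolipoproteins, plasma proteins and metabolic enzymes, with atoh1b-MO samples in red at the left and controls in blue at the right of each gene. The open symbol on the dotted line is a value of 0, which a log axis cannot show. For most genes control 3 (triangle) is the highest control and control 2 (square) the lowest, and all red symbols lie above the blue ones.

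Cytosolic heat shock proteins contributed 4 members. Of 24 listed heat shock and chaperone genes with a mean atoh1b-MO level of at least 5 CPM, 8 did not overlap upward, or 33.3% against the background of 13.1%. The count was 6 of 24 with TMM scaling, beside a background of 7.71% on that scale, and 1 other gene lay below. Nothing was read from these counts, since this list too was chosen with earlier results known. The median ratio over the 24 genes was 1.08. HSP90AA1 (chromosome 20, 54177901 to 54206778), the inducible cytosolic Hsp90, had 465, 313 and 357 CPM in atoh1b-MO samples, against 88.6, 172 and 101 CPM in controls, a ratio of 3.14. It shares 1318 exon bases on the same strand with hsp90aa1.1, which had 39.7, 23.0 and 21.7 CPM, against 12.9, 17.9 and 107 CPM and overlapped, so that the split of reads between them is uncertain. HSP90AB1, the constitutive form, had 7113, 6591 and 6925 CPM, against 6682, 6689 and 6613 CPM, and its groups overlapped.

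HSPA8 (ENSDARG00000037403), an Hsp70 gene, had 9.60, 5.27 and 2.77 CPM in atoh1b-MO samples, against 0.488, 0.969 and 1.58 CPM in controls. A second gene with this symbol was expressed at 6615, 6089 and 5957 CPM, against 6100, 5945 and 6451 CPM. The study's methods name uniquely aligned reads as those counted, so reads matching both genes would be left out. Those methods differ from the submitters' processing notes in other steps, so the effect on these counts is uncertain. HSPH1, a nucleotide exchange factor of Hsp70, had 11.7, 8.13 and 10.5 CPM, against 4.22, 4.49 and 4.52 CPM. HSPB8, a small heat shock protein, had 39.8, 47.1 and 44.0 CPM, against 32.5, 30.2 and 19.6 CPM, and its ratio fell to 1.39 without control 3. The heat-inducible genes hsp70.3 and hsp70l overlapped, with 33.9, 38.2 and 18.6 CPM, against 8.08, 31.3 and 9.63 CPM for hsp70.3. Outside the list, the Hsp40 gene dnaja had 77.8, 74.4 and 91.9 CPM, against 36.5, 44.4 and 28.8 CPM, and the Hsp90 cochaperone gene CHORDC1 had 29.3, 14.3 and 15.8 CPM, against 8.15, 10.9 and 5.14 CPM. HSP90AA1, HSPA8, HSPH1 and CHORDC1 were highest in atoh1b-MO 2, whereas dnaja was highest in atoh1b-MO 5.

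Blood genes among the members were highest in atoh1b-MO 5 and mostly lowest in control 3. The blood list held 16 genes with a mean atoh1b-MO level of at least 5 CPM, 4 of which did not overlap and were members. This was 25% against the background of 13.1%. With TMM scaling 3 of 16 did not overlap upward, beside a background of 7.71% on that scale. Nothing was read from these shares, since this list too was chosen with earlier results known. The list as a whole summed to 2017.6, 2954 and 3698 CPM in atoh1b-MO samples, against 3958, 3339 and 195 CPM in controls. The defining regulators gata1a and TAL1 overlapped, gata1a with 235, 329 and 436 CPM, against 327, 299 and 8.43 CPM. Without atoh1b-MO 2, the rule took 10 of 17 blood list genes at this level, and 505 of 11003 genes in all. In that setting 10 of the 17 did not overlap upward, beside a background of 21.98%.

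hbae3, an embryonic alpha globin gene, had 61.7, 87.0 and 125 CPM in atoh1b-MO samples, against 59.0, 61.6 and 5.79 CPM in controls. The ratio of 2.17 fell to 1.52 without control 3, and the lowest atoh1b-MO sample was level with control 2. hbae1.3, another alpha globin gene, had 5.65, 7.13 and 10.2 CPM, against 3.48, 4.22 and 0.411 CPM. The unnamed gene ENSDARG00000089963 on chromosome 3 had 31.5, 57.5 and 71.5 CPM, against 23.97, 26.1 and 2.43 CPM, and shares 210 exon bases on the same strand with HBE1 (ENSDARG00000087390), which had 8.28, 14.8 and 18.6 CPM, against 7.04, 5.73 and 0.685 CPM. A run of 5 members, these 4 genes and 1 more without a symbol, follow each other there and overlap or lie between 6361 and 7850 bases apart. On chromosome 12, hbae4 with 3.15, 3.03 and 8.93 CPM, against 1.71, 1.94 and 0.446 CPM, and a second HBE1 (ENSDARG00000045143) with 4.30, 6.47 and 9.82 CPM, against 4.11, 2.48 and 0.308 CPM, lie 12591 bases apart.

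SPI1, the transcription factor Pu.1 of myeloid cells, had 18.5, 25.2 and 42.0 CPM in atoh1b-MO samples, against 11.7, 13.6 and 5.96 CPM in controls. It shares 528 exon bases with a gene on the opposite strand. GFI1B, a zinc finger repressor of erythroid development, had 4.42, 7.42 and 7.80 CPM, against 1.88, 2.04 and 2.33 CPM. GFI1B was the exception among the 4 listed blood members, since its controls were close to each other and its ratio was 3.14 with control 3 and 3.34 without it. hdr, outside the list, followed SPI1 with 20.9, 25.04 and 42.7 CPM, against 12.3, 12.9 and 6.72 CPM.

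Further members with high ratios were also highest in atoh1b-MO 4. That trait was not theirs alone, since atoh1b-MO 4 was the highest for 111 of the 239 members, tfa and BHMT among them. frzb, a secreted Wnt antagonist, had 6.25, 32.5 and 16.6 CPM in atoh1b-MO samples, against 1.67, 2.29 and 3.87 CPM in controls, a ratio of 7.06. SAMD7, known as a retinal Polycomb-associated protein in mouse, had 2.63, 14.6 and 6.398 CPM, against 0.697, 0.484 and 1.097 CPM, a ratio of 10.4. For frzb and SAMD7 the SD was larger in atoh1b-MO samples than in controls, as it was for BHLHA15, ELAPOR1 and APLP1 but not SLC30A8. BHLHA15 (Mist1), a transcription factor of secretory cells in mammals, had 4.34, 13.4 and 6.398 CPM, against 0.697, 0.592 and 2.47 CPM. ELAPOR1, an endosome and lysosome protein, had 8.52, 26.1 and 14.0 CPM, against 0.488, 1.48 and 7.03 CPM. APLP1, a relative of the amyloid precursor protein, had 3.46, 13.6 and 8.18 CPM, against 1.71, 1.78 and 2.54 CPM. SLC30A8, a zinc transporter of secretory granules, had 4.58, 7.30 and 4.93 CPM, against 0.523, 0.457 and 3.15 CPM. In all 6 genes control 3 was the highest control. The unnamed gene ENSDARG00000090394 on chromosome 11 was also highest in atoh1b-MO 4 and in control 3 of its group, with 7.17, 13.7 and 4.996 CPM, against 0.244, 0.753 and 4.97 CPM.

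No member was in the hatching gland list, whose cells secrete the enzymes that digest the egg envelope, yet several of its genes were also highest in atoh1b-MO 4 and, of the controls, in control 3. he1.1, a hatching enzyme gene, had 54.8, 108 and 61.4 CPM in atoh1b-MO samples, against 2.61, 5.999 and 69.99 CPM in controls, and he1.2 had 39.9, 74.0 and 43.5 CPM, against 1.498, 3.87 and 48.2 CPM. ctslb, a cathepsin of the same gland, had 24.5, 76.6 and 40.8 CPM, against 0.841, 1.32 and 30.9 CPM. Control 3 lay within the atoh1b-MO group for these genes and controls 1 and 2 far below it. Of the 10 genes of this list, 6 had a mean atoh1b-MO level of at least 5 CPM. All 6 overlapped, beside a background of 13.1% for non-overlap upward. The list as a whole summed to 448, 743 and 708 CPM, against 404, 395 and 282 CPM. Unlike the genes just named, this sum was lowest in control 3 among the controls. The most abundant gene of the list was klf17, which is also in the blood list. Most ER members also had control 3 as their highest control, and the part of hatching gland cells in their levels was not tested.

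**Figure D4:**
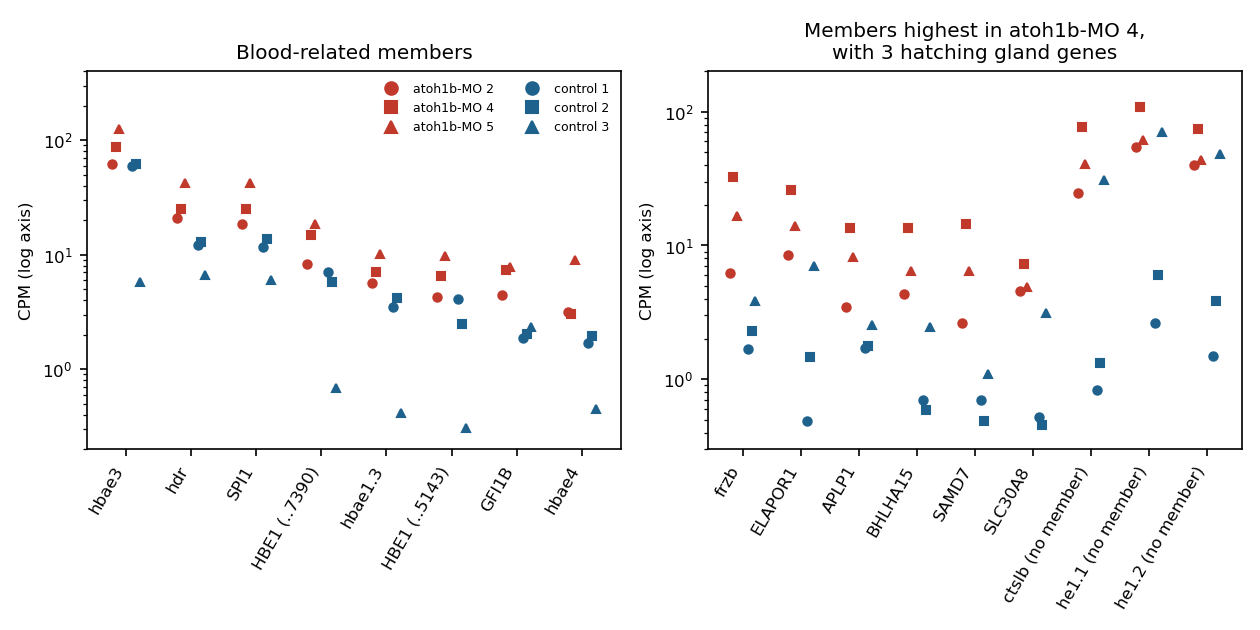
CPM (log axis) of 8 blood-related members (left) and of 6 members highest in atoh1b-MO 4 beside 3 hatching gland genes that are no members (right). Red symbols at the left of each gene are atoh1b-MO samples, blue symbols at the right are controls. Among the blood genes control 3 (triangle) is the lowest control except for GFI1B, and among the genes at the right it is the highest. The summed level of the whole hatching gland list is lowest in control 3 among the controls.

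Other members came from varied pathways. cry3a, a cryptochrome of the circadian clock family, had 180, 130 and 126 CPM in atoh1b-MO samples, against 61.1, 65.4 and 62.9 CPM in controls, and averaged 145 ± 30.0 CPM in atoh1b-MO samples and 63.1 ± 2.17 CPM in controls (SD, n = 3 each). Its ratio of 2.30 was the same without control 3. It was the only member of the circadian and light list. Of the 20 genes of this list with a mean atoh1b-MO level of at least 5 CPM, 2 did not overlap upward and 3 downward. The backgrounds were 13.1% upward and 3.74% downward, the latter over genes with a mean control level of at least 5 CPM. A second cryptochrome gene, cry3b, had a ratio of 1.66, and of 1.498 without control 3. ACP5, an acid phosphatase of osteoclasts and macrophages, had 6.77, 4.56 and 5.13 CPM, against 1.08, 0.673 and 1.37 CPM, a ratio of 5.27.

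Solute carriers supplied 12 members out of 155 with a mean atoh1b-MO level of at least 5 CPM, of which 30 did not overlap upward. That share was 19.4%, against the background of 13.1%, and nothing was read from it either. The most abundant was SLC4A2, an anion exchanger, with 20.2, 26.7 and 28.8 CPM in atoh1b-MO samples, against 10.5, 16.6 and 16.4 CPM in controls. SLC13A4, a sulfate transporter, had 18.8, 14.97 and 19.0 CPM, against 11.2, 11.6 and 1.54 CPM, and slc7a2, a cationic amino acid transporter, had 14.7, 17.95 and 15.9 CPM, against 9.96, 10.7 and 9.25 CPM. SLC13A4 was very low in control 3, and its ratio was 2.17 with it and 1.54 without it.

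Among the abundant members, SRSF1, a splicing factor, had 132, 104 and 105 CPM in atoh1b-MO samples, against 73.7, 75.7 and 64.0 CPM in controls. DAB2, an endocytic adaptor, had 50.7, 67.2 and 80.9 CPM, against 44.7, 48.8 and 25.02 CPM, and SUOX, sulfite oxidase, had 60.3, 69.7 and 62.0 CPM, against 50.03, 43.7 and 32.0 CPM. Both had a ratio under 1.5 without control 3, of 1.42 for DAB2 and 1.37 for SUOX. Some members of other lists had ratios between 1.55 and 1.77. These were trim35-7 in the NLR and TRIM-like list with 1.77, eif2ak1, the heme-regulated kinase of eIF2, with 1.68, PDK2, a pyruvate dehydrogenase kinase, with 1.68, PMVK of the mevalonate pathway with 1.62, the hexokinase HK2 with 1.59, PHLDA3, a p53 target, with 1.57, and TNNT3, a fast muscle troponin, with 1.55. Without control 3 the ratio was 1.34 for trim35-7, 1.46 for HK2 and 1.27 for TNNT3, while the others just named stayed above 1.5. Of the 14 genes of the p53 response list with a mean atoh1b-MO level of at least 5 CPM, 2 did not overlap upward, or 14.3%, near the background of 13.1%.

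No member was in the lists of immediate early genes, the integrated stress response, oxidative stress and metal response, the interferon response, the cell cycle, otic-epibranchial genes, hair cells, motile cilia, endothelium, skin, neural tissue, cytosolic ribosomal proteins, the proteasome or the nuclear-encoded respiratory chain. In the otic-epibranchial list 0 of 24 genes and in the hair cell list 0 of 7 genes did not overlap upward, and in the integrated stress response list 3 of 24 did, or 12.5%, near the background of 13.1%. In all, 48 members were in at least 1 list, and 8 members had no symbol.

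Members were found on all 25 chromosomes, with between 4 and 23 on each, the most on chromosome 5 with 23 out of 689 genes at this level. The median gene length was 2629 bases for members and 2612 bases for the nuclear genes with a mean atoh1b-MO level of at least 5 CPM. In 15 cases neighbouring members lay within 100000 bases of each other, the globin and afp4 pairs among them. Exons of 39 members overlapped exons of another gene, on the same strand for 11. The shared bases made up over 50% of the exon bases for 2 members, zgc:136439 and EFR3B. For these 39 genes the count may hold or lack reads of the partner, since it is not stated whether strand was used in counting.

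The ratios differed with and without control 3. It was the lowest control for 107 members and the highest for 105. For 19 members it was more than 5 times lower than the mean of controls 1 and 2, among them 6 genes of the globin regions on chromosomes 3 and 12, HNF4A, SLC13A4 and EDNRA, and for 27 members it was more than 2 times higher, among them both afp4 genes, tfa, apoa1b, BHMT and calr3b. When control 3 was left out of the mean, the median ratio of the 239 members was 1.74, 190 members still had a ratio of at least 1.5 and 49 did not. The ratio of afp4 (ENSDARG00000095863) became 40.4 and that of apobb.1 28.8. The median coefficient of variation over the members was 15.6% among atoh1b-MO samples and 27.8% among controls, and 12.1% between controls 1 and 2. Of the atoh1b-MO samples, atoh1b-MO 4 was the highest for 111 members, atoh1b-MO 5 for 75 and atoh1b-MO 2 for 53, and atoh1b-MO 2 was the lowest for 123.

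**Figure D5:**
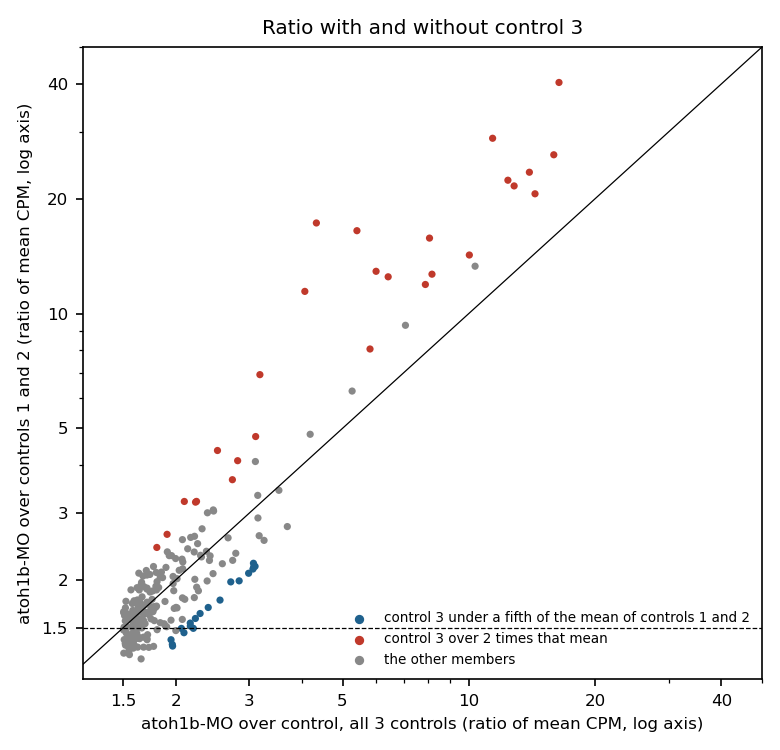
Ratio of mean atoh1b-MO CPM to mean control CPM with all 3 controls (horizontal, log axis) and with controls 1 and 2 (vertical, log axis), 1 point for each of the 239 members. The solid line marks equal ratios and the dashed line a ratio of 1.5 without control 3, under which 49 members lie. Members with a high level in control 3 (red, 27 genes) lie above the solid line and those with a very low level (blue, 19 genes) below it.

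The study dismissed a divergent wild-type sample that its text does not name, taken here to be control 3. In the fit without control 3, edgeR's quasi-likelihood test called 83 of 18397 genes higher at an adjusted p-value below 0.1. This was a background of 0.451%, and 33 of the 83 genes were members. Since the members had been chosen on the same contrast, nothing follows from this count. The 33 included HSPA5, HSP90B1, CALR, calr3b, PDIA4, HYOU1, dnajc3a and dnajc3b of the ER list, HSP90AA1, cry3a, TRAM1, rrbp1b and mia2, and apoa1b, apoa2, apobb.1, FABP2, tfa, fetub, BHMT, fbp1b and 1 of the afp4 genes, but none of the globin genes. The median log2 fold change was 0.75 over the members and 0.01 over all genes tested. DESeq2 called 466 genes higher, or 1.87% of the 24986 genes with a p-value, with 139 members among them. Unlike edgeR's, that base was not filtered with filterByExpr, so the shares are not comparable. With all 6 samples edgeR called 0 genes higher, and 597 genes were higher at an unadjusted p-value below 0.05 in that fit. DESeq2 then called 85 genes higher, or 0.337% of the 25253 genes with a p-value, of which 56 were members. When atoh1b-MO 4 was left out besides control 3, edgeR called 27 of 18036 genes higher, 9 of them members. It called 204 of 17910 genes without atoh1b-MO 2, with 84 members, and 54 of 17853 without atoh1b-MO 5, with 19 members. Counts over all genes and over members thus moved together. Leaving out control 1 or control 2 besides control 3 left a single control. The median log2 fold change of the members was then 0.73 without control 1 and 0.81 without control 2.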

How the data were processed

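Sequencing of poly(A) RNA from sorted cells was performed by the study. The authors deposited raw counts of reads per Ensembl gene, not normalized, with gene length and exon positions. Per the submitters' processing notes featureCounts (version 1.5.3) and genome build GRCz10 were used, whereas the study's methods name GRCz11. Positions are those of the table, taken as GRCz10. Strand use in counting is not given in the sources used here. The study detected a clutch effect and controlled for it in its model, but which samples share a clutch is not in the labels, so no clutch term was used. The labels and methods describe different library kits. Samples were grouped by title.

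CPM were computed from the counts and column totals. Members and gene lists were chosen with earlier results of these data known. Named were members with a symbol: the 20 highest ratios, the 15 highest levels, the 10 smallest adjusted p-values in the fit of 5 samples, and list members (3 at most for lists made by name pattern), besides members picked later as stated. A few genes that the rule names are not reported here. Symbols matched 26433 of 32266 genes.

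edgeR (version 4.0.16, R version 4.3.3) was fitted with TMM scaling, the filterByExpr filter and Benjamini-Hochberg adjustment, without control 3 and with all 6 samples. Control 3 was taken to be the wild-type sample that the study dismissed. DESeq2 (version 1.42.0), other limits, other scalings and leaving out each sample were alternatives. The edgeR fits were also run on simulated counts, and the outcome is not given here. Apart from genes changed on purpose, all simulated samples shared the same mean per gene. None of them diverged as control 3 did, so nothing is concluded from them about the fit of 6 samples. Replicates are those of the labels, and p-values set the difference between groups against the spread between these samples only.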

Additional observations from a re-analysis of the deposited data

How the results depend on the processing

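The number of members chosen by the rule was 239, 177 with TMM scaling, 179 with DESeq2's size factors, 137 with a minimum mean of 10 CPM, 533 with a minimum of 1 CPM and 89 with a minimum ratio of 2. When each sample was left out in turn, it ranged between 279 without atoh1b-MO 4 and 505 without atoh1b-MO 2. It was 401 without control 2 and 470 without control 3, and 190 of those 470 genes were among the 239. In the fit without control 3, edgeR called 83 genes higher, including 33 members. DESeq2 called 466, including 139, edgeR with no filter on low counts 331, including 102, and edgeR at an adjusted p-value below 0.05 called 52. Leaving out single atoh1b-MO samples gave 27 to 204 genes and 9 to 84 members. Leaving out control 1 or control 2 left a single control, so no count is given. With all 6 samples edgeR called 0 genes and 0 members, DESeq2 called 85 and 56, and leaving out single samples gave 0 to 83 genes and 0 to 33 members, the highest without control 3. By its construction the rule admits more genes at a lower minimum level and fewer at a higher minimum level or ratio. Leaving out a sample also weakens the demand that the groups do not overlap, so that more genes can meet it. Other causes of these differences were not tested. The median log2 fold change of the members was between 0.73 and 0.81 over the fits that began without control 3, and between 0.72 and 0.84 over those that began with all 6 samples. As an alternative added after the data were seen, counts of list members were recomputed. In the blood list the number was 10 of 17 genes at the minimum level without atoh1b-MO 2, against 4 of 16. For the 23 such genes of the unfolded protein response list it was 8 with TMM scaling, 10 without atoh1b-MO 2 and 14 without control 3, against 11. Over all genes the rule took 177 of 11025, 505 of 11003 and 470 of 11100 in these 3 settings, against 239 of 11100. No paired analysis was possible because the groups share only the replicate number 2. The study's model held a clutch factor, which could not be fitted here since the labels give no clutch. With 3 samples per group, levels near 0.1 CPM rest on a few counts and ratios against them are imprecise.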
